A study of Nothobranchius furzeri with 16 samples.

Results

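Of the 26739 genes counted in brains of the turquoise killifish, Nothobranchius furzeri, 2 carry the name of the human gene IRS2: Nfu_g_1_008662, called copy A from here on, and Nfu_g_1_005777, called copy B. They were taken by these identifiers, and had been chosen by their measured levels, with the difference between 12 and 5 weeks post hatching (wph) in view. The study sequenced total RNA of whole brains to follow brain ageing in a vertebrate with a short life. Used here were 16 libraries, 4 in each of 4 groups. For its age groups the paper describes more fish per group than there are libraries here. Fish without a library here enter no mean, SD, overlap or test below. The groups were fish of the wild-derived strain MZM-0410 at 5 wph (young), 12 wph (adult) and 39 wph (old), and fish of the laboratory strain GRZ at 5 wph. All fish were fasted and killed at 1 time of day, no treatment is labelled, and the labels give neither their sex nor a batch. The libraries are labelled as separate samples, and the methods describe samples of single fish.

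IRS2 is an adaptor protein that sits directly behind the insulin and IGF1 receptors. Once phosphorylated by them it recruits the kinase PI3K, which activates AKT, and AKT in turn holds FOXO transcription factors out of the nucleus. In mice, IRS2 in the brain is known for its part in brain growth and feeding, and in the liver its transcription rises on fasting. Teleost fish often keep duplicated copies of genes that mammals hold once, and the IRS2 genes of the killifish are such a case by name.

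Levels are CPM values, which are counts relative to the total of the library, scaled between libraries by the TMM method. Library totals ran from 3931420 to 10645432 reads, and the 3 shallowest libraries, up to 4629564 reads, were all of MZM-0410 5 wph. Markers of neurons summed to 3370 to 4600 CPM and markers of oligodendrocytes and myelin to 1540 to 4150 CPM over all libraries, so the markers of the labelled tissue were present. Markers of skeletal muscle, erythrocytes and pituitary were also read and varied between libraries, as given below. Reads were counted per gene without strand. The study's methods limit in TopHat2 how many places of the transcriptome a read may match. What became of reads that match both copies was not checked here, and the level of a single copy is uncertain to that extent. Gene lengths were not used here, and the level of copy A was therefore never set against that of copy B except as a ratio that is compared between groups. In such bulk tissue, fewer cells of a type and less RNA per cell cannot be told apart.

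Copy A was lowest in young MZM-0410. In this group it stood at 60.1, 61.3, 58.7 and 70.3 CPM in replicates 11, 12, 14 and 15. In adult MZM-0410 it stood at 200.6, 208.0, 145.8 and 186.7 CPM in replicates 1, 3, 4 and 5. Every adult library was above every young one, and adult replicate 4 was the lowest of its group. Old MZM-0410 gave 179.6, 181.7, 211.3 and 308.9 CPM for copy A in replicates 6, 8, 9 and 10. Young GRZ gave 103.9, 125.9, 110.5 and 191.8 CPM in replicates 1 to 4. A single library led each of these groups, old replicate 10 and GRZ replicate 4, and the other GRZ libraries lay between the young and the adult MZM-0410 range.

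Copy B had the same order of group means, with a smaller SD than copy A in every group but young MZM-0410. Its levels in young MZM-0410 were 95.4, 84.2, 72.5 and 91.1 CPM in replicates 11, 12, 14 and 15. Adult MZM-0410 had 192.6, 187.6, 171.3 and 170.9 CPM of copy B in replicates 1, 3, 4 and 5. The adult libraries all lay above the young ones. Old MZM-0410 had 191.3, 155.1, 167.1 and 243.2 CPM in replicates 6, 8, 9 and 10, and young GRZ had 174.3, 151.7, 155.7 and 184.4 CPM in replicates 1 to 4. Old replicate 10 again held the highest value, whereas GRZ replicate 4 exceeded GRZ replicate 1 only slightly for this copy.

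**Figure D1:**
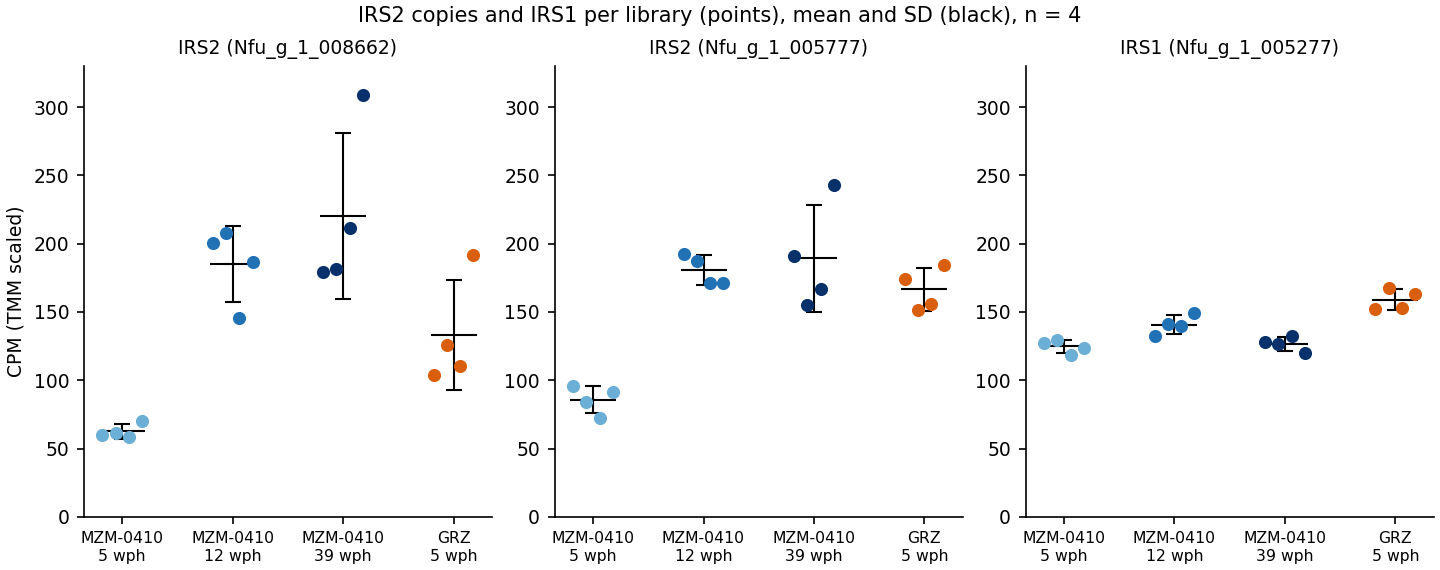
Levels of both IRS2 copies and of IRS1 in CPM (vertical axes) in the 4 groups (horizontal axes), with 1 point per library and the mean ± SD of 4 libraries in black. Both IRS2 copies are lowest in young MZM-0410, with means of 62.6 and 85.8 CPM, while IRS1 stays between 118.4 and 167.5 CPM in all 16 libraries.

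Mean levels of copy A were 62.6 ± 5.27 CPM (SD, n = 4) in young MZM-0410, 133.0 ± 40.3 in young GRZ, 185.3 ± 27.8 in adult MZM-0410 and 220.4 ± 60.8 in old MZM-0410. Those of copy B followed in the same order with 85.8 ± 9.99, 166.5 ± 15.5, 180.6 ± 11.2 and 189.2 ± 39.0 CPM. For both copies only the first step of this order, from young MZM-0410 to young GRZ, passed the test given below; GRZ and adult MZM-0410 did not differ past the threshold, nor did adult and old MZM-0410. Together the copies summed to 148.4 ± 13.2 CPM in young, 365.9 ± 36.9 in adult and 409.5 ± 96.7 in old MZM-0410, and to 299.6 ± 51.4 in young GRZ. The deeper young library, replicate 12 with 8241819 reads, held 145.5 CPM of both copies and lay within the 131.2 to 161.4 CPM of its group.

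Adult fish were compared with young fish first. Copy A was 2.98-fold and copy B 2.12-fold higher at 12 than at 5 wph in MZM-0410, with log2 fold changes of 1.57 ± 0.11 and 1.08 ± 0.09 (SE). The groups did not overlap for either copy. These values belong to the comparison in which the copies were picked and are a description without a test. Among all genes tested there, 6.60% passed an adjusted p of 0.05 in edgeR's quasi-likelihood test, and in 14.97% the groups did not overlap.

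Differences between the other groups were tested with edgeR's quasi-likelihood test and Benjamini-Hochberg adjustment over all genes tested, and a gene is said to have risen or fallen at an adjusted p under 0.05. All of these comparisons except GRZ with old MZM-0410 reuse libraries of the comparison that picked the copies, so that their adjusted p-values are not independent of that choice.

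Between adult and old MZM-0410, neither copy passed the threshold. Copy A differed by a log2 fold change of 0.25 ± 0.17 (adjusted p = 0.378) and copy B by 0.07 ± 0.12 (adjusted p = 0.773), and the libraries of the 2 ages overlapped for both. Of all genes tested between these ages, 9.64% passed. Without old replicate 10, the difference of copy B turned to −0.08 (adjusted p = 0.622).

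Between young and old MZM-0410, both copies rose. Copy A was 3.53-fold higher at 39 wph, a log2 fold change of 1.82 ± 0.16 (adjusted p = 2.72e-05). Copy B was 2.21-fold higher, with 1.14 ± 0.13 (adjusted p = 0.000142). The lowest old library exceeded the highest young one for each copy. This comparison called many genes: 24.9% of those tested passed in either direction, 12.3% as higher, and in 26.9% the groups did not overlap.

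Young GRZ fish also held more of both copies than MZM-0410 fish of the same age. Copy A was 2.12-fold higher in GRZ, with a log2 fold change of 1.08 ± 0.17 (adjusted p = 0.002), and copy B 1.93-fold higher, with 0.95 ± 0.09 (adjusted p = 6.06e-05). No GRZ library fell as low as any young MZM-0410 library for either copy. In this comparison 10.1% of all genes tested passed, 5.44% as higher in GRZ, and in 17.1% the groups did not overlap.

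Set against the older MZM-0410 fish, young GRZ fish had lower values of copy A. The difference from adult fish was −0.49 ± 0.18 on the log2 scale and missed the threshold (adjusted p = 0.0976), while that from old fish was −0.74 ± 0.21 and passed (adjusted p = 0.0193). The libraries overlapped in both, since GRZ replicate 4 lay within the adult and the old range. Copy B differed by −0.13 ± 0.08 from adult fish (adjusted p = 0.283) and by −0.20 ± 0.12 from old fish (adjusted p = 0.249). Strain and age differ together in these comparisons and cannot be told apart, and 11.05% and 31.2% of all genes passed in them.

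Copy A rose in GRZ against young MZM-0410 whichever library was left out (edgeR, adjusted p from 0.000153 to 0.0107). Its results against the older MZM-0410 fish depended on single libraries. Against old MZM-0410 the difference no longer passed without old replicate 10 (−0.53, adjusted p = 0.0521), without GRZ replicate 1 (−0.64, adjusted p = 0.0574) or without GRZ replicate 3 (−0.65, adjusted p = 0.0621). Against adult MZM-0410 it passed once GRZ replicate 4 was left out (−0.72, adjusted p = 0.00484).

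**Figure D2:**
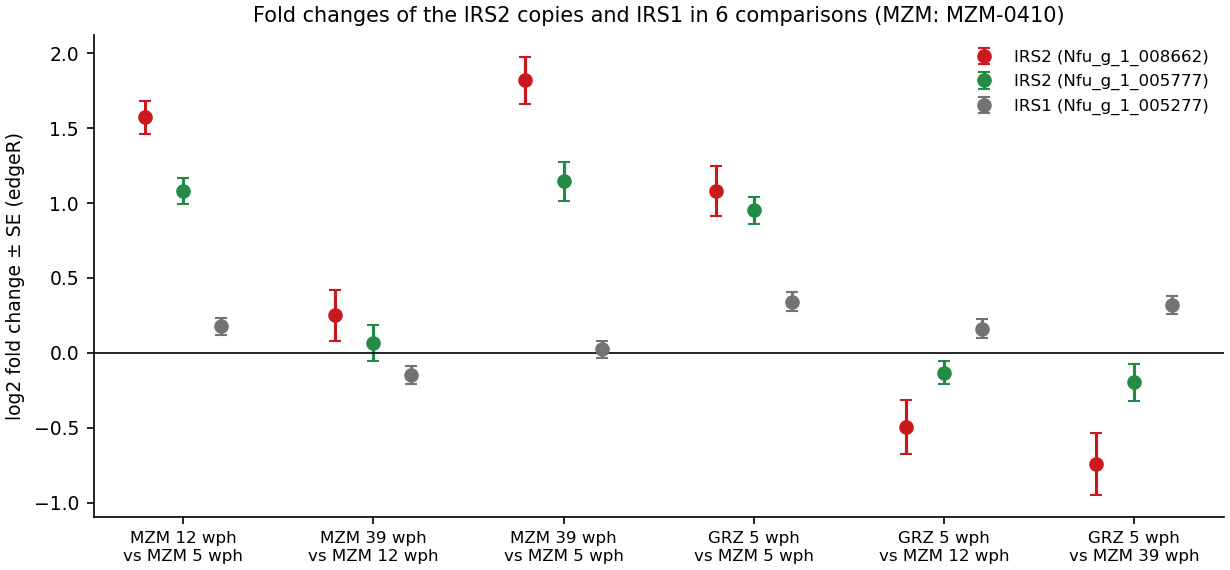
Log2 fold changes ± SE from edgeR (vertical axis) of both IRS2 copies and of IRS1 in 6 comparisons (horizontal axis; the group named first is divided by the second). Copy A (red) and copy B (green) lie between 0.95 and 1.82 in the 3 comparisons with young MZM-0410, and IRS1 (grey) lies between −0.15 and 0.34 in all 6.

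The balance of the copies was read as the share of copy A in the reads of both, which the scaling between libraries cannot move. In young MZM-0410 copy A made up 38.6%, 42.1%, 44.7% and 43.6% of these reads in replicates 11, 12, 14 and 15. In adult MZM-0410 the share was 51.0%, 52.6%, 46.0% and 52.2% in replicates 1, 3, 4 and 5. Adult replicate 4 came closest to the young fish, but the groups did not overlap. Old MZM-0410 had 48.4%, 54.0%, 55.8% and 56.0% in replicates 6, 8, 9 and 10, and young GRZ had 37.3%, 45.4%, 41.5% and 51.0% in replicates 1 to 4. Old libraries all lay above the young MZM-0410 ones, and GRZ covered the whole young range and reached the adult one.

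**Figure D3:**
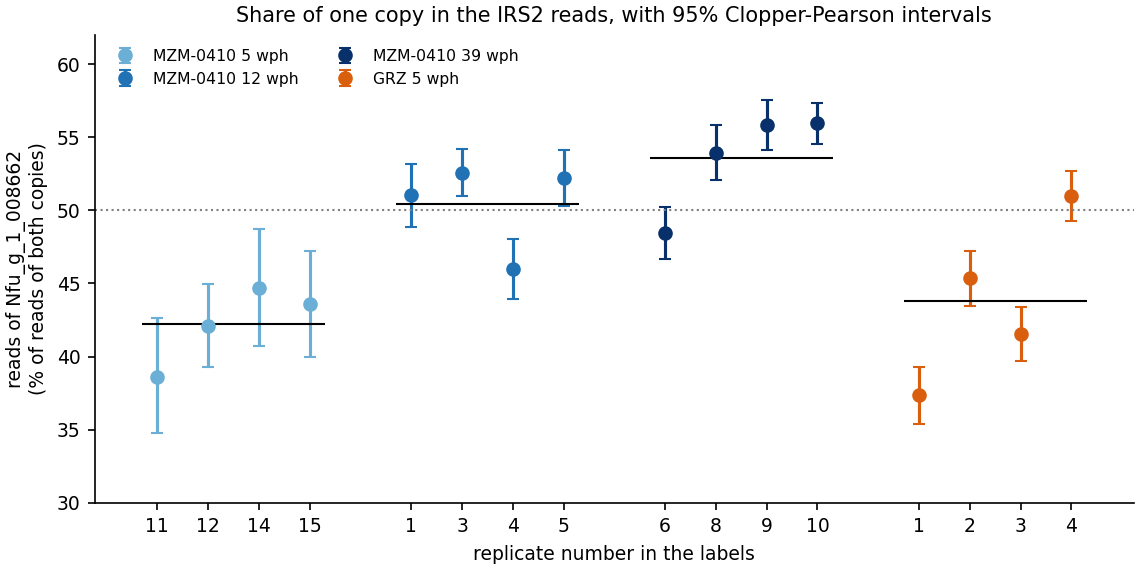
Share of copy A in the reads of both IRS2 copies (vertical axis, %) in each library (horizontal axis, replicate number within the group), with 95% Clopper-Pearson intervals; black lines are group means and the dotted line marks equal reads. The mean share is 42.3% in young, 50.4% in adult and 53.5% in old MZM-0410 and 43.8% in young GRZ, where single libraries run from 37.3% to 51.0%.

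The mean share of copy A was 42.3% ± 2.64 (SD, n = 4) in young, 50.4% ± 3.06 in adult and 53.5% ± 3.53 in old MZM-0410, and 43.8% ± 5.80 in young GRZ. As a ratio of copy A to copy B, the geometric means were 0.731, 1.018, 1.153 and 0.778 in these groups. Between young and adult MZM-0410 the log2 ratio differed by 0.48, which is again a description. From young to old it differed by 0.66, with no overlap, and an exact two-sided permutation test over the 70 splits of 8 libraries gave p = 0.0286, the smallest value this design allows, or 0.0952 after Benjamini-Hochberg adjustment over the 5 comparisons tested.

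No comparison of the ratio tested thus passed after adjustment. Over 5 comparisons, a single one at the smallest p could not pass this adjustment. The adjusted values therefore do not show that the balance was unchanged. From adult to old fish it differed by 0.18 (exact permutation p = 0.257), and between young GRZ and young MZM-0410 by 0.09 (exact permutation p = 0.714). Young GRZ differed from adult MZM-0410 by −0.39 and from old MZM-0410 by −0.57, each with an exact permutation p of 0.0571 and an adjusted value of 0.0952. With GRZ replicate 4 left out, the difference between the young strains turned to −0.05.

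The balance also varied between the fish of 1 group, which is given as a description with no test. In young GRZ the SD of the log2 ratio was 0.34, against 0.06 from counting alone. The interval of GRZ replicate 1, 35.4% to 39.3%, lay well below that of GRZ replicate 4, 49.3% to 52.7%. In young MZM-0410, where 236 to 512 reads of copy A were counted per library, the SD was 0.16 against 0.11 from counting, and the 4 intervals overlapped. The intervals cover counting error only. In adult and old MZM-0410 the SDs were 0.18 and 0.20, against 0.06 and 0.05 from counting, and adult replicate 4 and old replicate 6 had the lowest shares of copy A.

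Other gene pairs give a scale for these values. Of 545 human symbols held by exactly 2 killifish genes that passed the filter on low counts, the median pair changed its log2 ratio by 0.24 between young and old MZM-0410, and the IRS2 pair, with 0.66, took place 69 from the top. Between the young strains its change of 0.09 took place 428. How many of these pairs had ratios that did not overlap between groups was not counted. The log2 levels of the copies had a Pearson correlation of 0.926 over the 16 libraries, place 10 of the 545, where the median pair had 0.375. These places are a description with no test, and a correlation over all libraries includes the difference of young MZM-0410 from the other groups.

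With the group means removed, the correlation between the copies was 0.636, place 60 of the 545 pairs, where the median pair had 0.212. Over the 12 libraries outside young MZM-0410 it was 0.719, and Spearman's rho over all 16 libraries was 0.779. Old replicate 10 was high for both copies, while GRZ replicate 4 was set apart by copy A.

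IRS1, the sister adaptor of IRS2 with overlapping functions, had another pattern. IRS1 (Nfu_g_1_005277) averaged 124.8 ± 4.89 CPM in young, 140.5 ± 6.98 in adult and 126.7 ± 5.25 in old MZM-0410 and 159.0 ± 7.67 in young GRZ (SD, n = 4). Between young and old MZM-0410 it differed by a log2 fold change of 0.02 ± 0.06 (adjusted p = 0.803) and from adult to old by −0.15 ± 0.06 (adjusted p = 0.129). GRZ fish held more IRS1 than young MZM-0410, by 0.34 ± 0.06 (adjusted p = 0.00528), and more than old MZM-0410, by 0.32 ± 0.06 (adjusted p = 0.00269). Its levels correlated with those of copy A by 0.174 and with those of copy B by 0.360 over 16 libraries, and by −0.653 and −0.539 over the 12 libraries outside young MZM-0410. With group means removed, these correlations were 0.013 with copy A and −0.26 with copy B. IRS1 and both IRS2 copies thus stood higher in young GRZ than in young MZM-0410. From young to old both IRS2 copies passed the threshold and IRS1 did not, and the difference between the genes was not tested.

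Among 18633 other genes, the one whose levels over the 16 libraries were most like those of copy A was IGFBP1, with a correlation of 0.968. IGFBP1 (Nfu_g_1_002545) encodes a secreted protein that binds insulin-like growth factors. It stood at 5.34, 5.15, 6.40 and 5.57 CPM in young MZM-0410 and at 21.4, 27.2, 14.7 and 14.6 CPM in adult MZM-0410, in the order of replicates used above. Old MZM-0410 had 21.9, 18.3, 25.2 and 50.6 CPM and young GRZ 8.65, 11.9, 8.11 and 20.2 CPM. As for copy A, old replicate 10 and GRZ replicate 4 were the highest libraries of their groups. The correlation of IGFBP1 with copy A was 0.903 with group means removed, place 3 of all genes, and 0.966 over the 12 libraries outside young MZM-0410.

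The named genes that followed IGFBP1 in likeness to copy A were RAD54L2, a helicase-like protein of the nucleus, MKNK2, a kinase of the translation factor eIF4E, and MAGIX, with correlations of 0.965, 0.962 and 0.961. CDKN1A, which encodes the cell cycle inhibitor p21, and FNIP1, a partner of folliculin in nutrient sensing, both had 0.960. Next came the small Maf factor MAFK (0.955), the nuclear protein CSRNP1 (0.951), the solute carrier SLC35E4 (0.946) and the transcription factor ZBTB16 (0.945). With group means removed, MKNK2 kept 0.872 and FNIP1 0.861, whereas SLC35E4 had 0.680.

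Copy B was most like KLF9, a transcription factor gene known in mammals as a target of the glucocorticoid receptor, with a correlation of 0.965. KLF9 (Nfu_g_1_008967) stood at 8.14, 5.03, 6.83 and 10.9 CPM in young MZM-0410, at 43.8 to 65.6 CPM in adult and 48.3 to 105.0 CPM in old MZM-0410, and at 44.0 to 67.8 CPM in young GRZ. The young MZM-0410 libraries lay far below all others, and the correlation was 0.647 with group means removed and 0.750 over the other 12 libraries. After KLF9 came ZBTB16 (0.962), the AP-1 factor FOSB (0.960), CSRNP1 (0.955), the adhesion receptor ADGRB1 (0.954), and MAGIX and FKBP5, a co-chaperone of the glucocorticoid receptor (both 0.951). MNT, a partner of MAX that opposes MYC, had 0.949, MAFK 0.943 and the kinase RIOK3 0.942. ZBTB16 kept 0.785 with group means removed and RIOK3 0.342.

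The lists of likeness overlapped. Of the 100 genes most like copy A and the 100 most like copy B, 60 were shared, which is 60% of each list; 86 and 93 of them carried a human name. The other IRS2 copy itself took place 23 for copy A and 22 for copy B. All these correlations describe 16 libraries that share groups, and they carry no test.

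**Figure D4:**
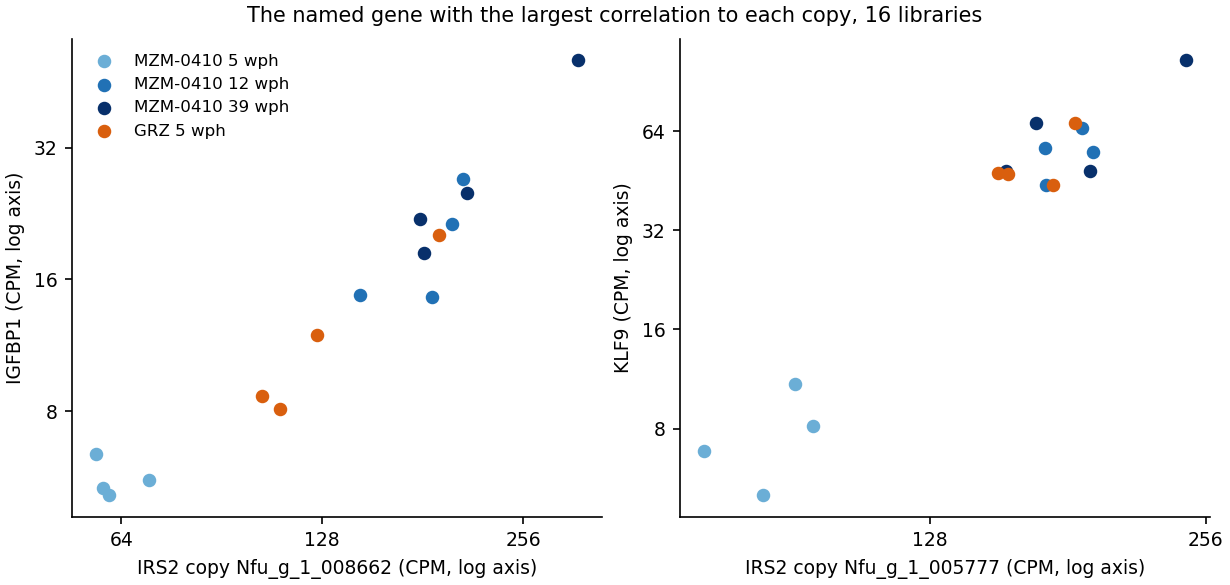
CPM of the named gene most like each IRS2 copy (vertical axes) against CPM of that copy (horizontal axes), with all axes on a log scale and 1 point per library coloured by group. Over the 12 libraries outside young MZM-0410 the correlation is 0.966 for IGFBP1 with copy A and 0.750 for KLF9 with copy B. Copy A spans 103.9 to 308.9 CPM in these libraries and copy B 151.7 to 243.2 CPM. Both genes were picked by their correlation over all 16 libraries, which include these 12.

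The rest of the insulin and IGF pathway was read from a list of 115 symbols, of which 52 had at least 1 killifish gene with that name, 68 genes in all. Names were held for 20.1% of all genes counted and more often for genes that changed: 49.1% of the genes that passed between young and old MZM-0410 were named and 22.2% of the others, and 41.9% and 27.3% between the young strains. Of the named genes tested 19.9% rose and 22.4% fell from young to old, and 8.86% rose and 5.89% fell in young GRZ. These shares, and those of all genes given next, are also the base for the counts by role below. Between young and old MZM-0410, 22 of the 66 members tested rose, 10 fell and 34 did not pass, where 12.3% of all genes rose and 12.6% fell; the median log2 fold change was 0.08, against 0.00 over all genes. In young GRZ against young MZM-0410, 16 rose, 4 fell and 46 did not pass, with a median of 0.09, where 5.44% of all genes rose and 4.69% fell. With 1 library left out, 13 to 21 rose and 2 to 6 fell. Without young MZM-0410 replicate 11 or 12, 2 fell, and without GRZ replicate 4, 21 rose and 6 fell. From adult to old MZM-0410, 3 rose, 5 fell and 58 did not pass, where 3.89% of all genes rose and 5.75% fell. Both IRS2 copies lay above the median of their pathway in the 2 comparisons with young MZM-0410. This is not independent of the choice of the copies, which had the same young libraries in view.

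Among ligands and binding proteins, IGFBP1 rose with copy A from young to old by 2.38 ± 0.32 (log2, SE, adjusted p = 0.000381). It also rose in young GRZ against young MZM-0410, by 1.12 ± 0.28 (adjusted p = 0.0273), a call that was lost without young MZM-0410 replicate 11, 12, 14 or 15 or GRZ replicate 2 (adjusted p up to 0.0869). IGF2, a growth factor ligand, rose by 0.39 ± 0.09 with age (adjusted p = 0.00914) and differed by −0.24 ± 0.12 between the young strains (adjusted p = 0.215). IGFBP2 fell in both, by 0.53 ± 0.11 (adjusted p = 0.00395) and by 0.56 ± 0.11 (adjusted p = 0.00615). No receptor of the list had a name here.

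Of the 8 adaptors other than IRS2, 1 rose and 1 fell from young to old, and 3 rose in young GRZ. GAB1, a docking protein that also recruits PI3K, rose with age by 0.39 ± 0.06 (adjusted p = 0.000595), and SHC1, which links receptors to RAS, fell by 0.49 ± 0.10 (adjusted p = 0.00404). Neither passed between the young strains. SHC3, a neuronal SHC protein, rose in GRZ by 0.29 ± 0.06 (adjusted p = 0.0163, or 0.0583 without young MZM-0410 replicate 12), as IRS1 did. The fold changes of the IRS2 copies exceeded those of all of these adaptors in both comparisons. The copies had been chosen with the same young MZM-0410 libraries in view, so this order is not independent of that choice.

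Directly behind IRS2, 3 of 10 PI3K and AKT genes rose and 1 fell with age, and 3 rose and 2 fell in young GRZ. One gene for the regulatory PI3K subunit PIK3R1 (Nfu_g_1_006668) was, like the IRS2 copies, lowest in young MZM-0410, while its other groups lay close together: 216.1 ± 9.01 CPM in young, 324.2 ± 33.3 in adult and 321.7 ± 44.5 in old MZM-0410 and 324.4 ± 16.5 in young GRZ. It rose by 0.57 ± 0.09 with age (adjusted p = 0.000727) and by 0.58 ± 0.06 in GRZ (adjusted p = 6.61e-05). PIK3R3, another regulatory subunit, rose in both by 0.45 ± 0.11 (adjusted p = 0.012) and 0.55 ± 0.07 (adjusted p = 0.000546). A second gene named PIK3R1 (Nfu_g_1_017101) differed by −0.02 ± 0.06 with age (adjusted p = 0.813) and rose in GRZ by 0.36 ± 0.06 (adjusted p = 0.00367).

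**Figure D5:**
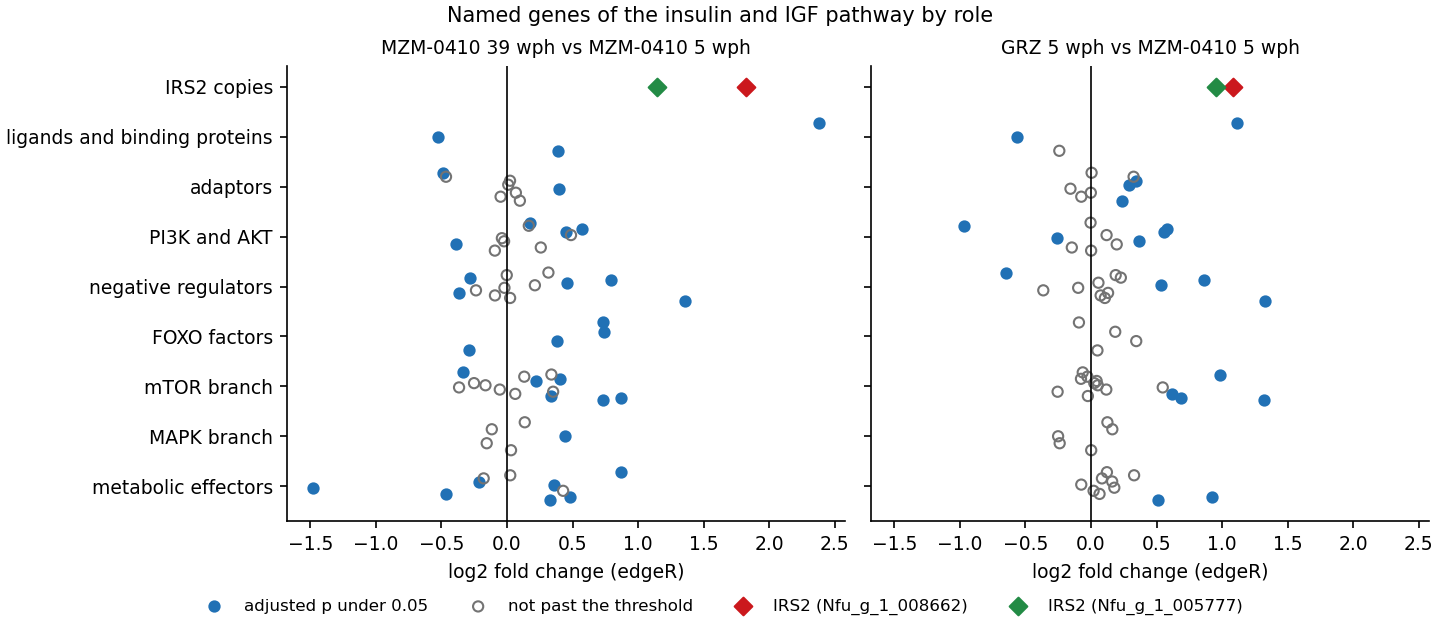
Log2 fold changes from edgeR (horizontal axes) of the named insulin and IGF pathway genes, in rows by role, for old against young MZM-0410 (left) and young GRZ against young MZM-0410 (right); filled points passed an adjusted p of 0.05 and diamonds are the IRS2 copies. With 1.82 and 1.14 on the left and 1.08 and 0.95 on the right, the IRS2 copies lie above all 8 other adaptors in each panel. The copies had been chosen with the same young MZM-0410 libraries in view.

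Of the 12 negative regulators, 3 rose and 2 fell with age, and 3 rose and 1 fell in GRZ. With age these counts were near the shares of named genes, 19.9% higher and 22.4% lower. TRIB1, a pseudokinase whose family binds AKT, rose with the IRS2 copies in both, by 0.79 ± 0.17 (adjusted p = 0.00501) and 0.86 ± 0.14 (adjusted p = 0.00282). The receptor phosphatase PTPRF fell in GRZ by 0.65 ± 0.16 (adjusted p = 0.0221, and up to 0.0558 without young MZM-0410 replicate 11 or 12).

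All 4 genes for FOXO factors changed from young to old MZM-0410, where 24.9% of all genes tested passed. Of the named genes 19.9% rose and 22.4% fell there. Between the young strains, where both IRS2 copies rose, 0 of the 4 passed in edgeR, 1 had an unadjusted p under 0.05, and 0 passed in DESeq2. In edgeR 10.1% of all genes tested passed between these strains. FOXO1 rose from young to old by 0.73 ± 0.13 (adjusted p = 0.00195), and 2 genes named FOXO3 rose by 0.74 ± 0.12 (Nfu_g_1_004534, adjusted p = 0.00127) and 0.38 ± 0.08 (Nfu_g_1_018907, adjusted p = 0.00382). The last FOXO3 gene (Nfu_g_1_021923) fell by 0.29 ± 0.08 (adjusted p = 0.0181, or 0.0541 without old replicate 9). In young GRZ, FOXO1 differed from young MZM-0410 by −0.09 ± 0.14 (adjusted p = 0.721).

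In the mTOR branch, 5 of 14 genes rose and 1 fell with age, and 4 rose in GRZ. SESN1 and DDIT4, which restrain mTOR complex 1, rose with the IRS2 copies in both: SESN1 by 0.87 ± 0.09 (adjusted p = 5.72e-05) and 0.69 ± 0.09 (adjusted p = 0.000399), DDIT4 by 0.74 ± 0.12 (adjusted p = 0.0012) and 1.32 ± 0.16 (adjusted p = 0.000385). Of the 5 genes of the MAPK branch, the phosphatase gene PTPN11 rose with age, by 0.44 ± 0.11 (adjusted p = 0.0107). In GRZ 0 of the 5 passed in edgeR or in DESeq2, and 3 had an unadjusted p under 0.05. Among 10 metabolic effectors, 4 rose and 3 fell with age and 2 rose in GRZ. SREBF1, the lipid synthesis factor, rose in both, by 0.48 ± 0.09 (adjusted p = 0.00224) and 0.93 ± 0.12 (adjusted p = 0.000546), as did the glucose transporter gene SLC2A1 (Nfu_g_1_021538), by 0.33 ± 0.08 (adjusted p = 0.0145) and 0.51 ± 0.08 (adjusted p = 0.00274).

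IRS2 is known in mammals to be induced by FOXO, CREB and glucocorticoid signalling, and targets of these were listed as well. Between young and old MZM-0410, where both copies rose, 12 of 15 FOXO targets rose and 2 fell, 9 of 14 CREB targets rose and 1 fell, and 18 of 22 glucocorticoid response genes rose, while 0 fell in edgeR, at an unadjusted p under 0.05 or in DESeq2. Of all genes tested 12.3% rose and 12.6% fell there, and of the named genes 19.9% rose and 22.4% fell. The median log2 fold changes of these lists were 0.83, 0.79 and 0.89, and lay below those of both IRS2 copies. This order is not independent of the choice of the copies. In young GRZ against young MZM-0410, 7 of 15, 9 of 15 and 14 of 22 rose and 1, 1 and 2 fell. Of all genes 5.44% rose and 4.69% fell there, and of the named genes 8.86% rose and 5.89% fell. The FOXO count of higher genes there was 3 without young MZM-0410 replicate 12, 14 or 15 and 4 without replicate 11. The CREB count was 6 without replicate 12 or 14, and the glucocorticoid count was 9 without replicate 12. From adult to old MZM-0410, where neither copy passed, 5 of 15 CREB targets rose and 2 fell. Of 22 glucocorticoid response genes 4 rose and 1 fell there. Of 15 FOXO targets 0 rose and 1 fell in edgeR, and 1 rose and 2 fell in DESeq2. Of all genes tested between these ages 3.89% rose and 5.75% fell in edgeR. The shares of named genes were not computed for these ages, although named genes passed more often in the comparisons where they were. The lists share members, CDKN1A among them, and were chosen with earlier results of these data known, so these counts are a description. A link of any of these genes to IRS2 was not tested.

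Markers of endothelium were, like the IRS2 copies, lowest in young MZM-0410, but from adult to old MZM-0410 their summed level in old fish lay below the adult range. The 5 genes that carry a name of this list of 7 symbols, KDR, PECAM1, CLDN5 and a pair named SLC2A1, summed to 175 to 207 CPM in young MZM-0410, to 270 to 323 in adult and 219 to 254 in old MZM-0410, and to 248 to 304 in young GRZ. None of them was at 0 in any group. From young to old 3 of the 5 rose, where 12.3% of all genes and 19.9% of named genes rose. In GRZ 1 rose, where 5.44% of all genes and 8.86% of named genes did. Markers of microglia and macrophages, 5 genes of this list of 9 symbols, summed to 168 to 206 CPM in young, 171 to 209 in adult and 235 to 285 in old MZM-0410 and to 189 to 219 in young GRZ. Of these, 3 of the 5 rose from young to old, against the same 12.3% and 19.9%. All 6 markers of oligodendrocytes and myelin fell from young to old, where 12.6% of all genes and 22.4% of named genes fell. The sums of these markers were 2860 to 3490 CPM in young, 2460 to 4150 in adult and 1540 to 2050 in old MZM-0410 and 2590 to 3040 in young GRZ. Neuronal markers stood at 4510 to 4600 CPM in young MZM-0410, 4420 to 4590 in adult MZM-0410 and 4410 to 4590 in young GRZ, and at 3370 to 3760 in old MZM-0410. Of these markers 13 of the 14 tested fell from young to old, against the same 12.6% and 22.4%. The old libraries thus lay apart from the young MZM-0410 ones in these 4 marker sums. Astrocyte and radial glia markers did so too, with 2330 to 2730 CPM in old and 3000 to 3390 in young MZM-0410. Skeletal muscle markers summed to 4.04 to 7.19 CPM in old and 26.4 to 137 in young MZM-0410, and reached 181 in young GRZ. Erythrocyte markers reached 87.9 CPM in old MZM-0410, below all young libraries. The pituitary marker GH1 ran from 0.213 to 521 CPM over all libraries. Whether the tissue taken differed between groups, and the part of these markers in the levels of IRS2, were not tested.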

How the data were processed

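The authors deposited raw read counts per annotated gene for 16 libraries. Their tools, per the labels and the study's methods, were bcl2fastq 1.8.4, TopHat2 2.1.0 with the Nfu_20150522 genome and featureCounts 1.5.0, ignoring strand, on the genebuild_v1.150922 annotation, so a gene and an antisense partner cannot be told apart. Human orthologue names, held for 5369 of 26739 identifiers, came from the supplementary tables of the study, of which no value was used. None of the identifiers (0) matched the RefSeq gene table used here, so no sequence or position is printed.

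Each comparison used its 8 libraries only, with filterByExpr, TMM and a two-sided quasi-likelihood test (edgeR 4.0.16; R 4.3.3) under Benjamini-Hochberg adjustment. An SE is the log2 fold change divided by the square root of F. Likeness is Pearson's correlation of log2 CPM with a prior count of 2; values over 12 libraries used none. Alternatives were DESeq2 1.42.0, RLE scaling, no filter, 1 fit over 16 libraries, leaving out each library, and a replicate block. The fits were tested on simulated data.

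The copies and all gene lists were chosen with earlier results of these data known. Named were, per role, up to 4 members with the smallest p in a comparison other than 12 against 5 wph, and the 10 named genes most like each copy; some members the rule picked are not reported here. Copy A had 236 to 2675 reads per library and copy B 340 to 2106.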

Additional observations from a re-analysis of the deposited data

Results flagged for a closer look

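The summed level of both IRS2 copies in GRZ replicate 4 stood apart from the rest of its group: 376.2 CPM against 266.2 to 278.2 CPM in the other 3 libraries, a gap of 0.891 of the group's range, which is past Dixon's 95% critical value for 4 samples. It was the only library past this value among 20 groups of values checked, and chance gives about 1 in 20.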

How the results depend on the processing

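Taken were 24 results: the log2 fold change of each copy, the change of their ratio and the number of genes called, over 6 comparisons. Settings were DESeq2, RLE scaling, no filter, 1 fit over 16 libraries and the share in place of the ratio. A replicate block on 6 libraries, and the same 6 without it, were also fitted for GRZ against adult MZM-0410. Under these settings 82 of 84 values kept the direction and the side of the threshold, or a count within 1.5 times. Leaving out 1 library at a time did so in 172 of 192 cases. For 12 against 5 wph no threshold was used for the copies and their ratio. There they had to keep their direction and stay within the SD between libraries, and the share had to keep its direction only. The exceptions to these rules were as follows, each given as the lowest and highest value over the libraries left out. Copy A ranged from −0.72 to −0.38 in GRZ against adult MZM-0410 and from −0.96 to −0.53 in GRZ against old MZM-0410; copy B ranged from −0.077 to 0.15 between adult and old MZM-0410, and the log2 ratio of the copies from −0.051 to 0.22 between the young strains. The number of genes called ranged from 650 to 972 for 12 against 5 wph (1146 with all libraries), from 608 to 1620 for 39 against 12 wph (1734), from 1055 to 2510 between the young strains (1823) and from 1017 to 3160 for GRZ against adult MZM-0410 (1999); fewer samples enter these fits, and the cause of the spread was not tested. The highest of these counts, 3160, was the one without GRZ replicate 4, where fewer samples went with more genes called. The adjusted p of copy A in GRZ against old MZM-0410 ranged from 0.00212 to 0.0621. With 3 libraries against 4, the smallest p of the ratio test is 0.0571. The ratio could therefore not cross the threshold with 1 library left out, and only its direction could change.

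GRZ 5 wph and MZM-0410 12 wph share the replicate numbers 1, 3 and 4. Same-numbered libraries did not deviate together (correlations of −0.1, 0.004 and 0.038), so the numbers were not taken to pair the fish. With the replicate block on these 6 libraries 388 genes were called, and 643 without it on the same 6, a fit chosen after seeing the data. Copy A then differed by −0.51 with the block (adjusted p = 0.31) and −0.46 without (0.274), and copy B by −0.12 (0.561) and −0.11 (0.499). Not every library correlated best with its own number.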
